A study of Caenorhabditis elegans with 22 samples.

Results

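The age change of microRNA (miRNA) hairpins between 1 and 20 days of age was measured in whole Caenorhabditis elegans worms, as the change common to rotenone and 2-deoxyglucose. The libraries were chosen by their age labels alone: 4 libraries of 20 days, 2 under rotenone and 2 under 2-deoxyglucose, were set against 6 libraries of 1 day, 3 under each compound. These are 10 of the 22 libraries of the series. The other 12, from days 5 and 10, were used for the course between these ages. All groups are hermaphrodites of the N2 strain, the laboratory wild type, and by their labels all carry a compound. Rotenone, which blocks complex I of the mitochondrial respiratory chain, was given at 0.039441 µg/ml per the labels. 2-Deoxyglucose is a glucose analogue that blocks glycolysis, and its dose is not given in the labels. By the labels no untreated group was analysed here, so the age change is that of worms under a compound. The source labels give no length of exposure to it, and age and length of exposure cannot be told apart here. The series title names DMSO, a solvent, where the sample labels name 2-deoxyglucose, and the labels are followed here. Whether those libraries are of worms under 2-deoxyglucose or under solvent alone cannot be settled from the sources used here. The labels do not say whether the libraries within a group are from separate cultures, and the p-values speak only for the spread among these libraries, which may in part be technical.

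miRNAs are short RNAs cut from hairpin precursors that pair with messenger RNAs, mostly through a few bases near their 5′ end called the seed, and lower their translation or stability. In C. elegans they were found through lin-4 and let-7, which time the larval stages. Others mark embryos, muscle, intestine, neurons or glia, and mutants of several live longer or shorter than wild type. Adult worms divide no somatic cells, while the germ line and the embryos it makes change through adult life.

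Total counts on miRNA hairpins ran from 850668 to 1436058 in the day 20 libraries and from 948172 to 2050435 in the day 1 libraries. Levels are CPM, counts scaled to a common total, on library sizes scaled by TMM, on which 1 count was worth 0.440 to 1.11 CPM. Each value sums whatever arms of a hairpin were counted. Library pairs of the same group differed by a chi-square per degree of freedom of 12.1 to 140, pairs of the same age under different compounds by 80.9 to 274, and pairs of different ages by 1256 to 2611. No day 20 or day 1 library stood with the other age, and no pair agreed within counting noise. The description of each library holds an L code whose meaning is not given, and 3 of the codes occur at both ages. In RNA of whole worms, fewer cells of a type and less RNA per cell cannot be told apart.

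Between day 1 and day 20 most of the measurable hairpins changed. Of 250 hairpins, 139 passed the filter on low counts and 99 of these changed (edgeR quasi-likelihood F test with compound as a factor, adjusted p under 0.05), which is 71.2% of those tested. The split was even: 49 rose (35.3%) and 50 fell (36%), and the median log2 change was -0.02. At an unadjusted p under 0.05 the number was 101. The day 20 and day 1 values did not overlap in 85 of the 139 hairpins (61.2%), with 42 wholly above (30.2%) and 43 wholly below (30.9%). Among the 48 hairpins with a mean over 1000 CPM, 20 rose and 18 fell, with a median absolute log2 change of 0.92. Changes in scale moved this split: scaling by total counts gave 43 up and 59 down, and TMM factors that leave out mir-35 to mir-42 and the 5 most abundant hairpins gave 57 up and 45 down, with median shifts of -0.14 and 0.17 on the log2 scale. In 0 of the 99 did the sign turn in an alternative in which the hairpin was tested. In the 2-deoxyglucose libraries alone 96 of the 99 were tested. mir-8199 was not among them, and its 2-deoxyglucose change in the fit of 4 groups was 0.87 ± 0.81 (adjusted p = 0.357), against -1.75 ± 0.43 for both compounds together.

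**Figure D1:**
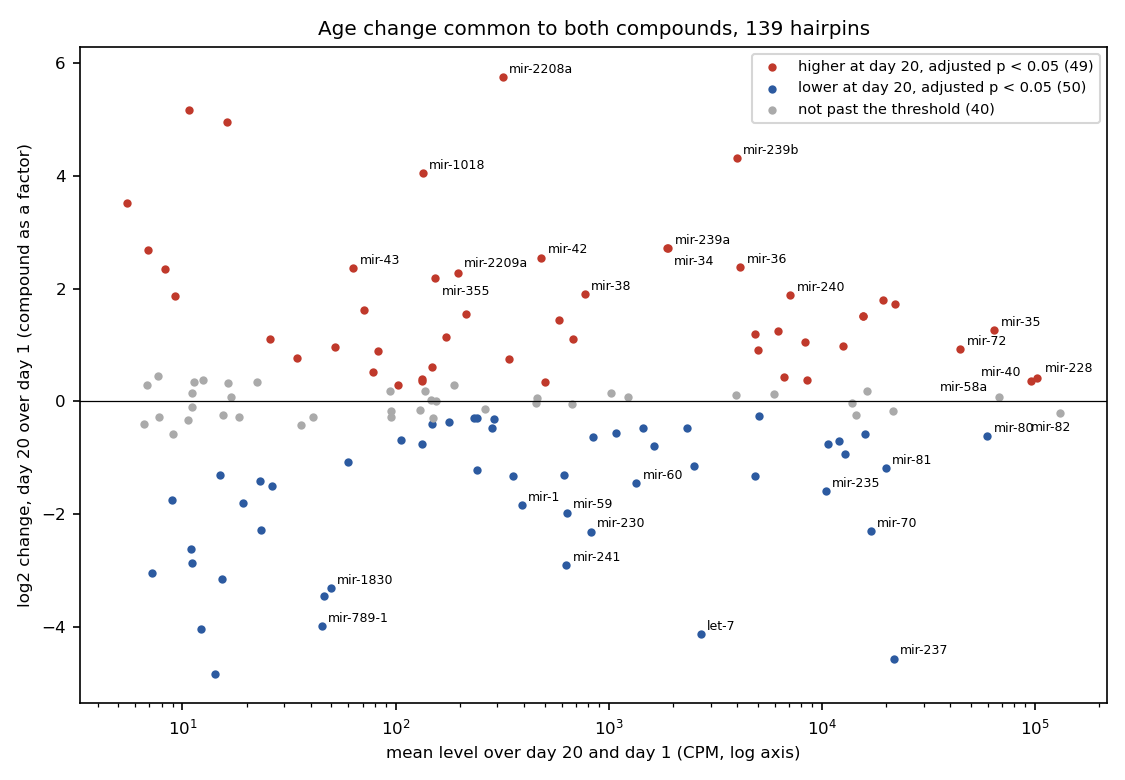
Log2 change (day 20 over day 1, compound as a factor) against the mean of the day 20 and day 1 levels (CPM, log axis) for 139 hairpins, coloured by whether they rose, fell or did not pass an adjusted p of 0.05. Changed hairpins lie at every level, with mir-237 at -4.56 and mir-239b at 4.31 the extremes among those averaging over 1000 CPM.

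The hairpins linked to lifespan moved in both directions. Of the 9 on this list, 6 rose and 3 fell, with a median log2 change of 0.98 against -0.02 over all hairpins tested, of which 35.3% rose and 36% fell. mir-239b shares a locus with mir-239a, and loss of the locus has been reported to lengthen life in this species. mir-239b had 8498 and 7266 CPM under rotenone and 7783 and 6834 CPM under 2-deoxyglucose at day 20. Over the 6 libraries of day 1 it had 311 to 482 CPM (median 383). Every day 20 value was above every day 1 value, and the log2 change was 4.31 ± 0.12 (SE, adjusted p = 7.74e-13). mir-239b lies at X:11791302-11791399, minus strand, and mir-239a at X:11792445-11792542, plus strand (WBcel235).

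mir-239a reached 3185 and 3166 CPM under rotenone and 3368 and 3470.3 CPM under 2-deoxyglucose at day 20, against 449 to 549 CPM (median 501) at day 1. Its change of 2.72 ± 0.08 was smaller than that of mir-239b, and the 4 day 20 libraries were close together. mir-34, the worm relative of the mammalian p53-linked miR-34, had 3163 and 3828 CPM under rotenone and 2940.0 and 3128 CPM under 2-deoxyglucose at day 20, against 429.9 to 569.8 CPM (median 494) at day 1. The groups were far apart, with a log2 change of 2.72 ± 0.10 (adjusted p = 1.03e-11).

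mir-238, whose loss shortens life, averaged 8729 ± 401 CPM at day 20, against 3683 ± 311 CPM at day 1 (SD, n = 4 and n = 6), a log2 change of 1.25 ± 0.07. With mir-239a and mir-239b it makes the mir-238 family, of which 3 of 3 rose with a median of 2.72. mir-246, whose loss also shortens life, had 17802 and 19779.8 CPM under rotenone and 14827 and 14048 CPM under 2-deoxyglucose at day 20, against 7138 to 10516 CPM (median 8342) at day 1. The groups did not overlap, the rotenone libraries of day 20 were higher than the 2-deoxyglucose ones, and the common change was 0.98 ± 0.13. mir-228, an abundant hairpin expressed in glia, rose by 0.42 ± 0.12, and this call was lost with scaling by total counts (0.27), in the 2-deoxyglucose libraries alone (0.09) and in the libraries with an L code held at both ages (0.44).

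The members of this list that fell are mir-71, mir-80 and lin-4. mir-71, which promotes long life, had 2999 and 3228 CPM under rotenone and 2379 and 2513 CPM under 2-deoxyglucose at day 20, against 6004 to 7491 CPM (median 6972) at day 1. The day 20 values were all below the day 1 values, with a log2 change of -1.32 ± 0.11 (adjusted p = 6.00e-08). mir-80, a bantam relative linked to dietary restriction, averaged 47170.1 ± 3943 CPM at day 20, against 72250.0 ± 8331 CPM at day 1 (SD, n = 4 and n = 6), a change of -0.61 ± 0.08.

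The heterochronic hairpins, which set the timing of larval development, did not move as a block. In the lin-4 family both members fell, with a median of -2.93, and in the let-7 family 4 of 7 fell and 2 rose, with a median of -0.29, where 36% fell and 35.3% rose over all hairpins tested. mir-237, the lin-4 relative, had 1502 and 1465 CPM under rotenone and 1970.0 and 2218 CPM under 2-deoxyglucose at day 20, against 37943 to 45814 CPM (median 41439) at day 1. The ages were far apart, with a log2 change of -4.56 ± 0.11 (adjusted p = 4.92e-13), and the 2-deoxyglucose libraries of day 20 were above the rotenone ones. lin-4 itself averaged 357 ± 31.9 CPM at day 20, against 877 ± 75.8 CPM at day 1 (SD, n = 4 and n = 6), a change of -1.30 ± 0.09.

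let-7 had 269 and 313 CPM under rotenone and 321 and 265 CPM under 2-deoxyglucose at day 20, against 4547 to 5809 CPM (median 5067) at day 1. No value came near the other age, and the change was -4.13 ± 0.11 (adjusted p = 7.74e-13). Its relative mir-241, which acts with mir-48 and mir-84 in the larval skin, had 173 and 152 CPM under rotenone and 135 and 123 CPM under 2-deoxyglucose at day 20, against 806 to 1440.5 CPM (median 1074) at day 1, a change of -2.90 ± 0.17.

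mir-84 went the other way. It had 7298 and 5775 CPM under rotenone and 6892 and 6875 CPM under 2-deoxyglucose at day 20, against 2389 to 3331 CPM (median 3024) at day 1, without overlap and with a change of 1.20 ± 0.09. mir-48, the most abundant of the family, averaged 13802 ± 1359.6 CPM at day 20, against 13947 ± 564 CPM at day 1 (SD, n = 4 and n = 6). The 95% interval of its log2 change was -0.17 to 0.13, and the sign of its estimate of -0.02 turned with DESeq2 size factors (0.03) and with the TMM factors that leave out mir-35 to mir-42 (0.15). The other 3 members changed by less than let-7, mir-241 and mir-84. Their changes were -0.29 ± 0.11 for mir-793, -0.41 ± 0.12 for mir-794 and 0.37 ± 0.11 for mir-795. The call of mir-793 was lost in 10 of 25 alternatives, that of mir-794 in 2 and that of mir-795 in 1.

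Summed over the family, let-7 hairpins made 19626 to 22845 CPM at day 20, against 22150 to 25074 CPM at day 1. These ranges overlap, while the lin-4 family summed to 1846 to 2594 CPM at day 20, against 38866 to 46631 CPM at day 1.

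**Figure D2:**
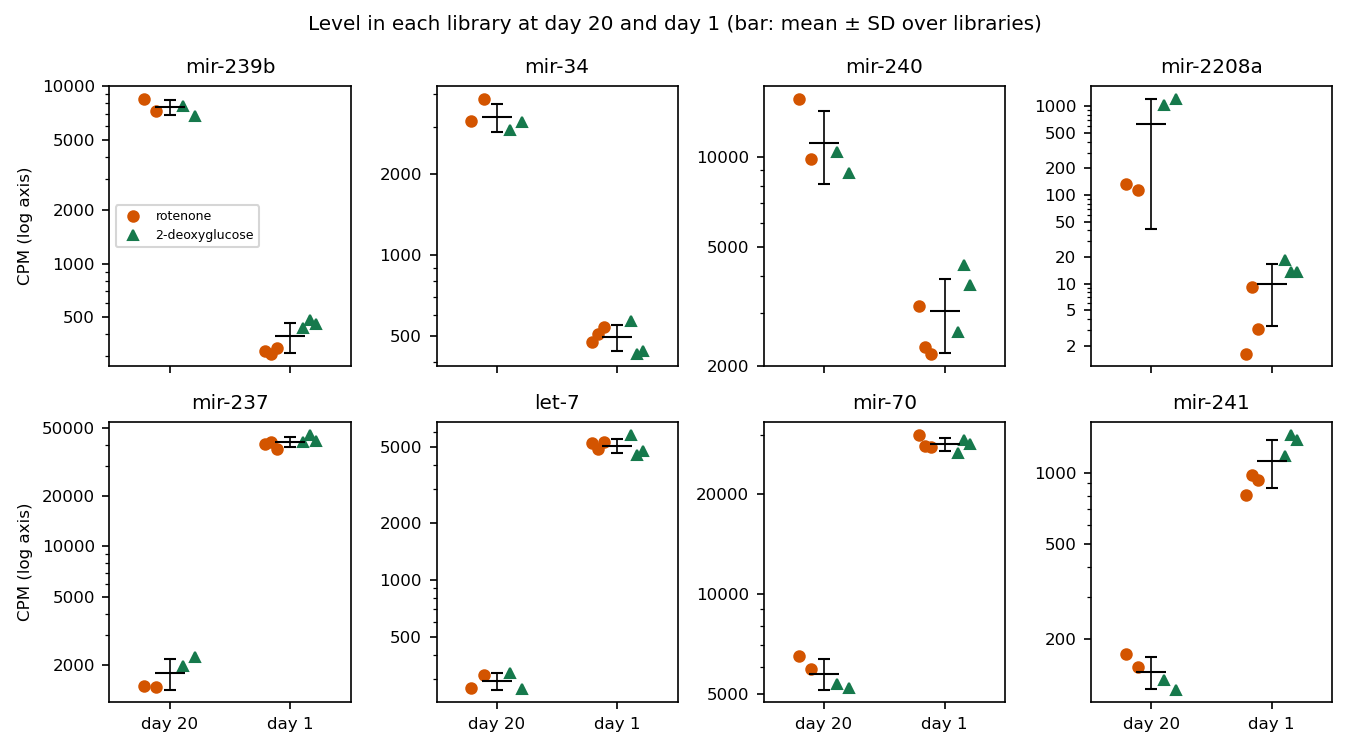
Level in each library (CPM, log axis) of 8 hairpins at day 20 (n = 4) and day 1 (n = 6), with circles for rotenone, triangles for 2-deoxyglucose and the mean ± SD over the libraries of an age. In all 8 panels the ages do not overlap, and mir-2208a is the panel in which the compounds lie farthest apart at day 20, with 132 and 115 CPM under rotenone and 1042 and 1219 CPM under 2-deoxyglucose.

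All 8 members of the mir-35 family rose. This family is supplied to and made in embryos, is needed for embryonic survival, and is used here as a list linked to eggs and embryos. How many eggs or embryos the worms held was not measured here, so these levels are not read as a count of them. The median log2 change was 1.76, against -0.02 over all hairpins. The summed level was 239169 to 316470 CPM at day 20, against 108659 to 187694 CPM at day 1, and no member was at 0 in any of the 10 libraries. mir-35, which gained the most CPM of all hairpins tested, had 90683 and 108866 CPM under rotenone and 79547 and 84176 CPM under 2-deoxyglucose at day 20, against 27521 to 49599 CPM (median 37236) at day 1, a change of 1.27 ± 0.11. The groups did not overlap. mir-36 had 7689 and 8435 CPM under rotenone and 5798 and 5881 CPM under 2-deoxyglucose at day 20, against 1050.3 to 1698 CPM (median 1318) at day 1, and its change of 2.38 ± 0.08 was larger though it is scarcer.

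The change differed in size along the family. mir-37, mir-38 and mir-39 rose by 1.73 ± 0.14, 1.90 ± 0.08 and 1.799 ± 0.08, mir-42 by 2.55 ± 0.30 and mir-41 by 0.90 ± 0.13. mir-40, at day 20 the third most abundant hairpin by mean level, rose by only 0.37 ± 0.11, with 104428 and 121973 CPM under rotenone and 94591 and 106834 CPM under 2-deoxyglucose at day 20 and 65911 to 111154 CPM (median 78755) at day 1. Its values overlapped between the ages. The call of mir-40 was lost with scaling by total counts (0.23), in the rotenone libraries alone (0.24), without 2-deoxyglucose day 20 library 2 (0.30) and in the libraries with an L code held at both ages (0.38).

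As a share of all counts the family held 27.2 ± 1.87% at day 20, against 15.8 ± 2.94% at day 1 (SD, n = 4 and n = 6). The difference of 11.4 points, 10.3 under rotenone and 12.6 under 2-deoxyglucose, had p = 0.01 in a two-sided exact permutation test of ages within compound, the smallest p that its 100 arrangements can give (adjusted p = 0.04 over 4 measures of library make-up). The list was chosen with earlier results of these data known, and its members were called in these same libraries. The p is therefore no separate support for their rise. What part the mir-35 family hairpins have in the change of other hairpins was not tested.

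The mir-44 family rose too, with 3 of its 3 tested members called and a median of 1.52, where 35.3% rose over all hairpins tested. In each of the 10 libraries the counts of mir-44 and mir-45 were at most 2.71% apart, and the pair is read as 1 uncertain measurement. In the fit without mir-45 and mir-5592-2, the 2 members left were both called, with a median of 0.95. The family summed to 50842 to 66540 CPM at day 20, against 18180 to 27406 CPM at day 1. mir-44 averaged 23072 ± 2945 CPM at day 20, against 8133 ± 1727 CPM at day 1 (SD, n = 4 and n = 6), a change of 1.52 ± 0.10. mir-61, which acts in vulval cell fate, rose by 0.37 ± 0.11, a call lost in the 2-deoxyglucose libraries alone (0.25). mir-247, the remaining member, did not pass the filter.

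The mir-51, mir-58 and mir-64 groups were mixed or lower. In the mir-51 family, which acts in embryos and in the attachment of the pharynx, 3 of 6 rose, 2 fell and the median was 0.10 (-0.03 with scaling by total counts). The shares over all hairpins tested were 35.3% higher and 36% lower, and the share of the family that fell is near that. mir-54 averaged 11281 ± 1784 CPM at day 20, against 5437 ± 774 CPM at day 1 (SD, n = 4 and n = 6), a change of 1.05 ± 0.12. mir-53 rose by 1.10 ± 0.09 and mir-52 by 0.44 ± 0.12, the last not called in the 2-deoxyglucose libraries alone (0.14) or in the libraries with an L code held at both ages (0.42). mir-55 fell by 0.75 ± 0.11 and mir-51 by 0.58 ± 0.10 on the log2 scale. The family sum was 51663 to 55215 CPM at day 20, against 52627 to 66968 CPM at day 1, ranges that overlap.

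The mir-58 family, relatives of the fly miRNA bantam that take part in body size control, holds several of the most abundant hairpins. Of 5 tested members 3 fell and 0 rose, with a median of -0.61, beside the 36% and 35.3% over all hairpins. mir-81 had 11159 and 11419 CPM under rotenone and 12776 and 13419 CPM under 2-deoxyglucose at day 20, against 25286 to 29283 CPM (median 27990.5) at day 1, and fell by 1.18 ± 0.09 on the log2 scale. mir-58b, scarce at both ages, fell by 2.87 ± 0.34. mir-82, the most abundant hairpin of every day 1 library and of both 2-deoxyglucose libraries of day 20, had 114452 and 116739.6 CPM under rotenone and 126160.4 and 131870.1 CPM under 2-deoxyglucose at day 20, against 125589 to 154124 CPM (median 140195) at day 1. Its change of -0.20 ± 0.09 missed the threshold (adjusted p = 0.0511) and was called with scaling by total counts (-0.34). mir-58a averaged 68999 ± 9044 CPM at day 20, against 65724 ± 8652 CPM at day 1 (SD, n = 4 and n = 6), and the interval of its log2 change was -0.18 to 0.32.

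In the mir-64 cluster, inside an intron of gcn-1 at III:2172452-2173206, 3 of 4 fell (36% over all hairpins), with a median of -0.81. mir-65 averaged 8847 ± 378 CPM at day 20, against 16809.5 ± 891 CPM at day 1 (SD, n = 4 and n = 6), a change of -0.93 ± 0.07. mir-64 and mir-229 changed by -0.70 ± 0.07 and -1.14 ± 0.13. mir-66, the neighbour of mir-65, had 4192 and 4320.0 CPM under rotenone and 3900.0 and 3913 CPM under 2-deoxyglucose at day 20, against 3654 to 3973 CPM (median 3761) at day 1. Its change of 0.11 ± 0.07 did not pass the threshold (adjusted p = 0.15), turned to -0.03 with scaling by total counts and was called higher with DESeq2 size factors (0.15).

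Of the 7 hairpins of differentiated tissues, 3 fell and 1 rose, with a median of -0.34. The share that fell, 42.9%, is near the 36% over all hairpins tested, and 35.3% of those rose. mir-1, the muscle miRNA, had 139 and 194 CPM under rotenone and 154 and 199 CPM under 2-deoxyglucose at day 20, against 448 to 703 CPM (median 629) at day 1. All day 20 values were lower, with a change of -1.83 ± 0.14 (adjusted p = 4.45e-08). mir-60, an intestinal hairpin, had 880.2 and 777 CPM under rotenone and 603 and 639 CPM under 2-deoxyglucose at day 20, against 1739 to 2230.3 CPM (median 1960.1) at day 1. Again the ages did not overlap, with a change of -1.44 ± 0.12.

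Of the neuronal hairpins, lsy-6 alone passed the test. lsy-6, which sets the left-right difference of a pair of taste neurons, was scarce and fell, with 10.2 and 6.65 CPM under rotenone and 8.87 and 8.58 CPM under 2-deoxyglucose at day 20, against 17.9 to 23.4 CPM (median 21.8) at day 1 and a change of -1.30 ± 0.20. mir-124, a sensory neuron hairpin, changed by -0.34 ± 0.37 (adjusted p = 0.416), with overlapping values from 4.43 to 14.8 CPM at day 20. mir-790 and mir-791 changed by 0.29 ± 0.15 and -0.27 ± 0.21 without passing the threshold, though mir-790 was called higher with DESeq2 size factors (0.34). No member of this list was at 0 in all libraries of an age.

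The largest log2 rise common to both compounds was that of mir-2208a. It had 132 and 115 CPM under rotenone and 1042 and 1219 CPM under 2-deoxyglucose at day 20, against 1.62 to 18.5 CPM (median 11.4) at day 1, a change of 5.75 ± 0.26. Every day 20 value was above every day 1 value, and the 2-deoxyglucose libraries of day 20 were well above the rotenone ones. In the day 1 libraries it held 2, 15 and 7 counts under rotenone and 40, 15 and 19 under 2-deoxyglucose. The difference of its age change between compounds, -1.48 ± 0.50, did not pass the threshold (adjusted p = 0.0766). Over 25 alternatives its change ran from 4.69 to 6.16. mir-1018 had 210.3 and 218 CPM under rotenone and 270.5 and 316 CPM under 2-deoxyglucose at day 20, against 8.499 to 22.9 CPM (median 14.4) at day 1, a change of 4.04 ± 0.22. mir-2209a, which lies downstream of mir-2208a, rose by 2.28 ± 0.17, with 325 CPM at day 20 against 65.99 CPM at day 1.

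mir-240 and mir-786, adjoining hairpins that as a pair are linked to the regular rhythm of defecation, rose together. mir-240 had 15623 and 9845 CPM under rotenone and 10339 and 8797 CPM under 2-deoxyglucose at day 20, against 2198 to 4359 CPM (median 2885) at day 1. Rotenone day 20 library 1 was highest, the ages did not overlap, and the change was 1.88 ± 0.21. mir-786 averaged 857 ± 95.2 CPM at day 20, against 315 ± 34.95 CPM at day 1 (SD, n = 4 and n = 6), a change of 1.44 ± 0.09. mir-355 had 238 and 265 CPM under rotenone and 252 and 256 CPM under 2-deoxyglucose at day 20, against 45.4 to 67.4 CPM (median 52.3) at day 1, with the day 20 libraries of both compounds nearly level and a change of 2.19 ± 0.12.

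Among abundant hairpins, mir-72 had 57561 and 62872 CPM under rotenone and 57697 and 55239 CPM under 2-deoxyglucose at day 20, against 27221 to 34509 CPM (median 30398) at day 1. It did not overlap between ages and rose by 0.93 ± 0.08. mir-43, the neighbour of mir-42, averaged 104 ± 20.3 CPM at day 20, against 22.2 ± 14.8 CPM at day 1 (SD, n = 4 and n = 6), a change of 2.36 ± 0.23. Several further risers were scarce at day 1: mir-4807 held 99 counts over the day 20 libraries against 5 over the day 1 libraries, mir-2208b 140 against 9, and mir-2220 47 against 8. Their fitted changes of 5.16 ± 0.44, 4.95 ± 0.30 and 3.51 ± 0.50 rest on those few day 1 counts.

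Among the falls, mir-70 lost the most CPM after mir-237 and mir-80. It had 6509 and 5949 CPM under rotenone and 5339 and 5190.5 CPM under 2-deoxyglucose at day 20, against 26403 to 30064 CPM (median 27972) at day 1, a change of -2.30 ± 0.08 (adjusted p = 1.21e-11). The day 1 libraries lay close together, and all were above the day 20 libraries. mir-235, which links nutrition to larval arrest, had 4846 and 5275 CPM under rotenone and 5336 and 5220.5 CPM under 2-deoxyglucose at day 20, against 13596 to 17458 CPM (median 15600.5) at day 1, a change of -1.59 ± 0.09. The 4 day 20 libraries of mir-235 were within a narrow range under both compounds.

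mir-230 had 289 and 317 CPM under rotenone and 229 and 268 CPM under 2-deoxyglucose at day 20, against 1225 to 1541 CPM (median 1366) at day 1, a change of -2.30 ± 0.11. mir-59 averaged 259 ± 14.1 CPM at day 20, against 1014 ± 63.2 CPM at day 1 (SD, n = 4 and n = 6), a change of -1.97 ± 0.08. Neither overlapped between the ages. mir-789-1, mir-789-2 and mir-1830 had 3.33 to 13.6 CPM in the day 20 libraries and 66.4 to 117 CPM in the day 1 libraries, with changes of -3.98 ± 0.23, -3.46 ± 0.20 and -3.31 ± 0.28. mir-789-1 and mir-789-2 may share reads that the counting could split, as may mir-2208a and mir-2208b. mir-788 held 4 counts at day 20 against 265 at day 1, and mir-1020 6 against 222.

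Some hairpins had like levels at day 1 and day 20, and are called steady for those ends only. Of the 90 with a mean over 100 CPM, 18 had a 95% interval of the log2 change within -0.5 to 0.5. The most abundant are mir-82, mir-58a, mir-48 and mir-66 of the families above, with mir-57, mir-90, mir-56, mir-85 and mir-77. The interval does not cover the ages between: mir-82, mir-58a, mir-48, mir-66 and mir-77 had higher means at days 5 and 10 than at either end. For mir-90 those means were lower than at either end. mir-57, a posterior patterning hairpin, averaged 20274 ± 2409 CPM at day 20, against 22744 ± 2386 CPM at day 1 (SD, n = 4 and n = 6), with an interval of -0.39 to 0.06. mir-90 averaged 17305 ± 1941 CPM at day 20, against 15208 ± 1847 CPM at day 1 (SD, n = 4 and n = 6), with an interval of -0.02 to 0.38. These intervals allow small changes, and for mir-77 the fall of 0.26 ± 0.09 was itself called (adjusted p = 0.0204), a call lost in 3 of 25 alternatives, among them the fit without rotenone day 20 library 1 (-0.19). Scaling turned the sign of several: by total counts mir-58a came to -0.07 and mir-85 to -0.01, while with DESeq2 size factors mir-90 was called higher (0.23).

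Hairpins that lie together in the genome need not have moved together. Of 250 hairpins 245 were found by name in the Ensembl annotation of WBcel235, and let-7 was the only tested one not matched. Within 10 kb on 1 strand, 49 tested hairpins formed 18 clusters. In 6 clusters all tested members were called in the same direction, in 6 there were calls in opposite directions, and the other 6 joined called members with uncalled ones. Of the hairpins in clusters 26 of 49 rose (53.1%), against 23 of 89 outside them (25.8%) and 35.3% over all tested. For falls the numbers were 14 and 35 (28.6% and 39.3%), beside 36% over all tested. Many risers come from a few clusters in which every tested member rose. Of these risers 7 are mir-35 to mir-41, and the clusters of mir-42, mir-2208a and mir-4807 hold 3 each. In the mir-4807 cluster only 3 of 11 members were tested, and in the mir-2208a cluster 3 of 4. The genome build used for counting is not given in the sources used here, and whether counting used strand is not stated.

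The mir-35 to mir-41 cluster at II:11537608-11538404 is one in which all 7 rose, by 0.37 (mir-40) to 2.38 (mir-36). mir-42, mir-43 and mir-44 at II:11889811-11890118 also rose together, by 1.52 to 2.55. mir-240 and mir-786 are 32 bases apart on chromosome X, and mir-357 and mir-358 at V:8580542-8580967 both fell, with changes of -1.795 ± 0.20 and -2.28 ± 0.25.

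Opposite calls stood close together elsewhere. mir-80, mir-238 and mir-90 lie at III:8865270-8874084, where mir-80 fell by 0.61, mir-238 rose by 1.25 and mir-90 changed by 0.18 without a call. mir-54 rose by 1.05 and mir-55 fell by 0.75 with 71 bases between them, at X:13144691-13145094. mir-51 and mir-53 at IV:11026013-11027691 changed by -0.58 and 1.10. mir-2 and mir-71 both lie in introns of ppfr-1 on chromosome I, and mir-71 fell by 1.32 while mir-2 rose by 0.35, a call lost in 5 of 25 alternatives, among them scaling by total counts (0.20).

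mir-73 rose by 0.92 and its neighbour mir-74 fell by 0.31, a call lost in 6 of 25 alternatives, among them the fit without rotenone day 20 library 1 (-0.26), with mir-75 at -0.16 uncalled. mir-795 and mir-794 changed by 0.37 and -0.41. Among the clusters that joined called with uncalled members, the widest gap was between mir-48 (-0.02) and mir-241 (-2.90), which lie 1678 bases apart at V:14364412-14366283. On chromosome II, which holds the mir-35 and mir-42 clusters, 14 of 24 tested hairpins rose, where 35.3% rose over all. The number was 10 of 25 on chromosome IV, 18 of 47 on X, 3 of 18 on III, 2 of 11 on V and 2 of 13 on I. Of 34 hairpins inside a protein-coding gene on its strand 13 fell (38.2%), near the 36% over all, and 5 rose (14.7%), beside 31 lower and 35 higher of 86 outside such genes. These shares are counts without a test. mir-70 in an intron of pmp-5 and mir-1830 in an intron of paic-1 are among those that fell.

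**Figure D3:**
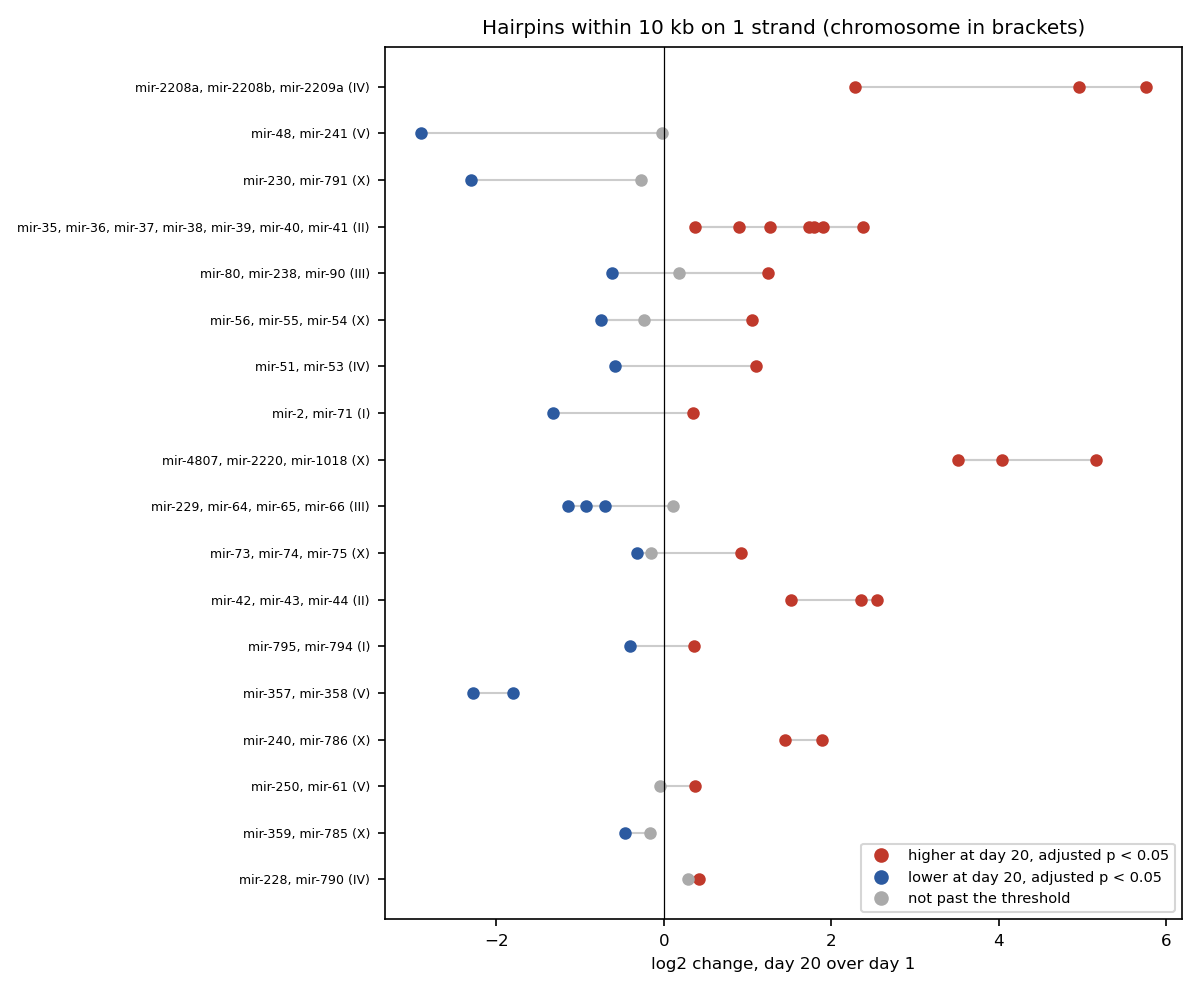
Log2 change (day 20 over day 1) of the tested members of the 18 hairpin clusters, with 1 row per cluster and colours for rose, fell and not past the threshold. In 6 rows red and blue points stand together, among them mir-80, mir-238 and mir-90 (-0.61, 1.25 and 0.18).

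The 12 libraries of days 5 and 10 belong to neither age compared and show the course between them. Day 10 against day 5, with compound as a factor, called 46 of 131 hairpins (35.1%), 23 up and 23 down (17.6% each). Of the 46 hairpins higher at day 20 that were tested in both, 38 were higher and 8 lower at day 10 than at day 5, with a median of 0.38. Of the 48 lower at day 20, 44 were lower and 4 higher, with a median of -0.40, and over all 130 hairpins 59 were higher and 71 lower, with a median of -0.03. Among the risers 22 were called up and 1 down, and among the fallers 0 up and 20 down. The split of calls rested on single libraries: without rotenone day 10 library 1 it was 33 up and 11 down, without library 2 31 and 10, without 2-deoxyglucose day 10 library 1 28 and 11, and without library 2 28 and 10. In those 4 fits 43 risers were higher and 38 to 40 fallers were lower.

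Many changes were graded over the 4 ages. Of the 49 risers, 42 had their highest mean at day 20 and 29 increased at every step. Of the 50 fallers, 39 had their highest mean at day 1 and 26 decreased at every step. The calls used the same day 1 and day 20 levels, so the order of the ends was set by them. These counts are therefore no separate support for the calls. Of the 40 uncalled hairpins, 8, 12, 10 and 10 had their highest mean at days 1, 5, 10 and 20. Only 2 of them moved in 1 direction at every step. let-7 averaged 5095, 1677, 807 and 292 CPM at days 1, 5, 10 and 20, and mir-237 41570.4, 15016, 4814 and 1789 CPM. Both were lower at each age than at the one before. mir-239b averaged 389, 683, 1420.3 and 7595 CPM, and its widest step was the last, while mir-34 averaged 495, 819.9, 1624 and 3265 CPM. The ages are unevenly spaced and the last step covers the longest time, so the width of a step is not a rate.

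Other hairpins had their main step early or late. mir-238 averaged 3683, 8843, 8698 and 8729 CPM and mir-355 54.7, 221, 258 and 253 CPM, so both means were already close to that of day 20 at day 5. mir-235 averaged 15651, 8353, 4951 and 5169 CPM, level from day 10, and mir-230 1372, 795, 243 and 276 CPM. mir-70 averaged 28168, 30948, 21728 and 5747 CPM, with its widest step after day 10, the longest of the gaps between ages. It differed by -0.53 ± 0.11 on the log2 scale between day 10 and day 5 (adjusted p = 0.00235).

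For 10 of the fallers the highest mean was at day 5, so that day 20 against day 1 gives only the ends of the course. mir-71 averaged 6913, 10230.1, 6292 and 2779.8 CPM and mir-80 72250.0, 116281, 87142 and 47170.1 CPM. mir-51 averaged 19046, 25916, 17998 and 12765 CPM and mir-60 1972, 2597, 1901 and 725 CPM. mir-77 was higher at days 5 and 10 than at either end, with 5494, 8075, 8459 and 4592 CPM. Means over an age pool both compounds.

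**Figure D4:**
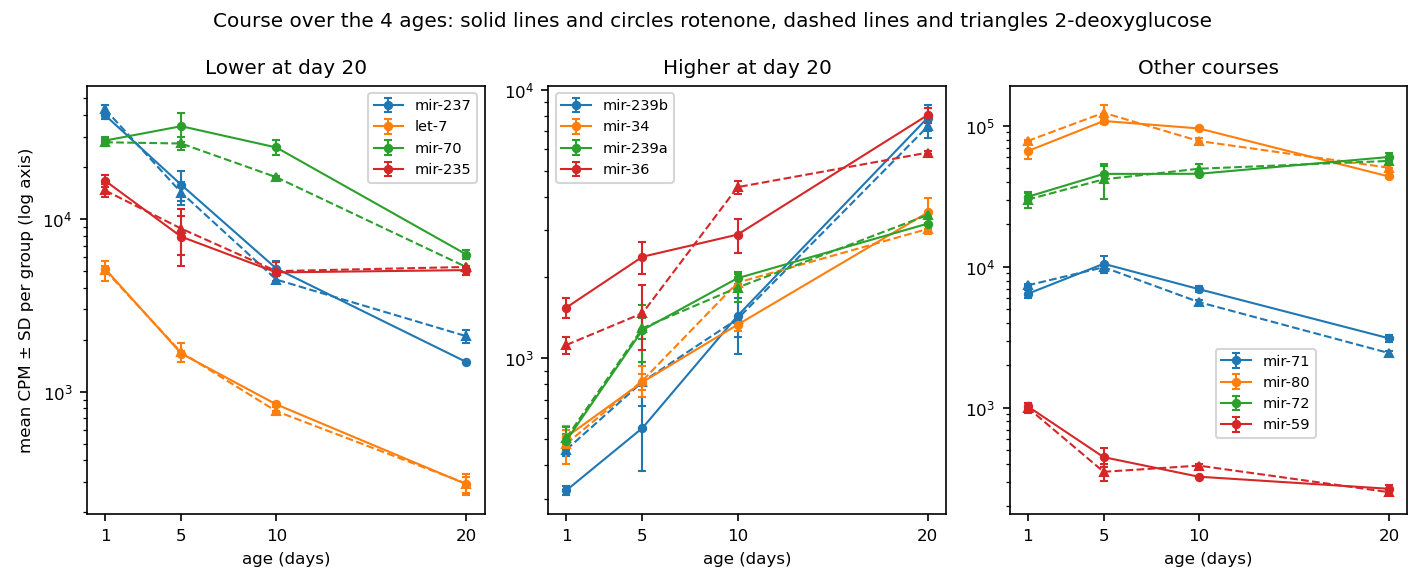
Mean CPM ± SD (log axis) at 1, 5, 10 and 20 days for 12 hairpins, with solid lines and circles for rotenone, dashed lines and triangles for 2-deoxyglucose, 3 libraries a point at days 1, 5 and 10 and 2 at day 20. let-7 and mir-237 decrease at each age, mir-239b and mir-34 increase, and mir-71 and mir-80 peak at day 5.

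The age change was also taken within each compound, between which no library is shared. Day 20 against day 1 called 96 hairpins in rotenone worms (69.1%; 49 up and 47 down) and 93 in 2-deoxyglucose worms (66.9%; 43 up and 50 down). The difference of the 2 age changes, rotenone minus 2-deoxyglucose, was called in 15 of 139 (10.8%), 10 of them positive (7.19%) and 5 negative (3.6%), and in 37 at an unadjusted p under 0.05. A difference that misses the threshold does not show that the compounds act alike. let-7 changed by -4.14 ± 0.15 under rotenone and -4.11 ± 0.15 under 2-deoxyglucose, mir-355 by 2.18 ± 0.16 and 2.18 ± 0.16, and mir-36 by 2.38 ± 0.10 and 2.38 ± 0.10, and for none of these was the difference called.

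The count of differences rested on single libraries. It came to 5 and 6 without rotenone day 20 library 1 or 2, to 5 and 4 without 2-deoxyglucose day 20 library 1 or 2, and to 5 and 6 without 2-deoxyglucose day 1 library 2 or 3. When a day 20 library is left out, the lone library of that group is assumed to vary like the others. mir-42, mir-43 and mir-1018 were called in all 15 alternatives run, mir-2209a in 14 and mir-246 in 13.

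The difference for mir-42, the mir-35 family member outside the main cluster, was -1.84 ± 0.25 (adjusted p = 9.57e-04). Its day 20 levels were 788 and 890.4 CPM under rotenone and 715 and 794 CPM under 2-deoxyglucose. At day 1 it had 207, 351, 242 CPM under rotenone and 68.3, 67.3, 65.2 CPM under 2-deoxyglucose. The compounds were thus apart at day 1 and close at day 20.

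mir-43, its neighbour, had 121 and 123 CPM under rotenone and 89.8 and 84.04 CPM under 2-deoxyglucose at day 20. The day 1 values were 38.9, 34.02, 33.9 CPM under rotenone and 9.23, 9.997, 7.08 CPM under 2-deoxyglucose, again lower under 2-deoxyglucose, and the difference was -1.51 ± 0.25 (adjusted p = 0.00269). mir-1018 rose by 3.39 ± 0.15 under rotenone and 4.86 ± 0.17 under 2-deoxyglucose, and mir-2209a by 1.78 ± 0.12 and 2.78 ± 0.13. At day 20 mir-2209a had 252 and 259 CPM under rotenone and 411 and 376 CPM under 2-deoxyglucose, with the 2-deoxyglucose libraries higher. At day 1 the order was the reverse for mir-2209a and mir-1018, with every rotenone library above every 2-deoxyglucose library in CPM.

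mir-246 rose more under rotenone, by 1.34 ± 0.10, than under 2-deoxyglucose, by 0.60 ± 0.10 (adjusted p of the difference = 0.0052). Among the positive differences, mir-60, mir-241 and mir-71 fell less under rotenone. mir-60 changed by -1.12 ± 0.10 under rotenone and -1.78 ± 0.10 under 2-deoxyglucose, mir-241 by -2.48 ± 0.14 and -3.37 ± 0.14, and mir-71 by -1.05 ± 0.09 and -1.60 ± 0.09. mir-60 and mir-241 were each called in 8 of the 15 alternatives and mir-71 in 6. mir-239b, called in 6, rose by 4.61 ± 0.11 under rotenone and 4.00 ± 0.10 under 2-deoxyglucose.

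**Figure D5:**
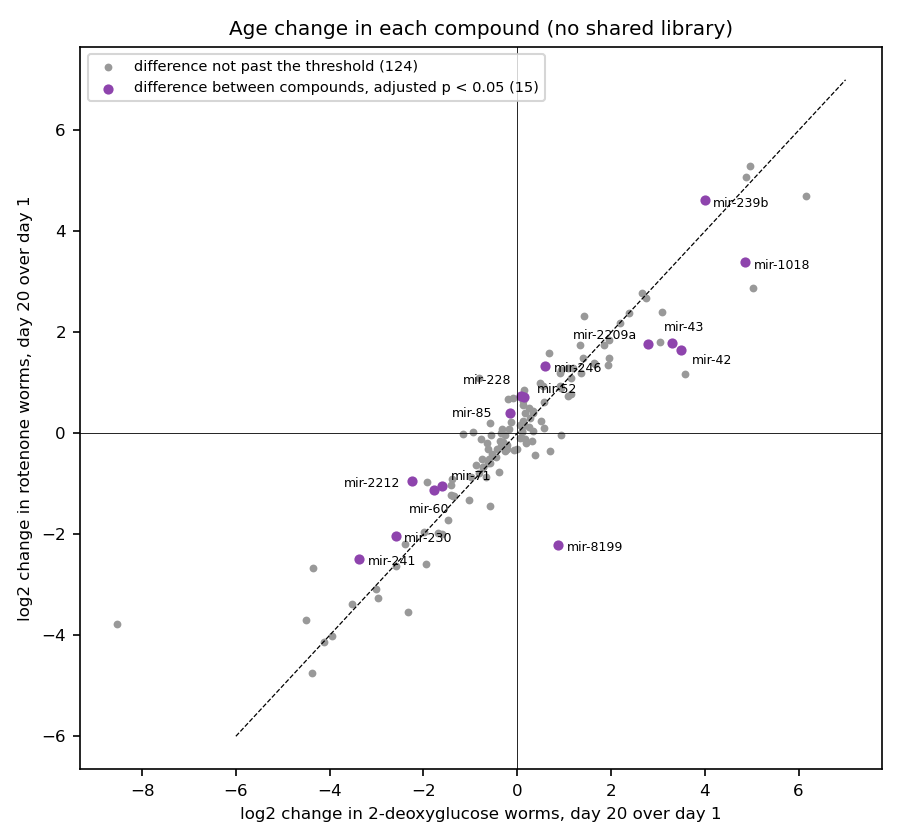
Log2 age change (day 20 over day 1) under rotenone (vertical axis) against that under 2-deoxyglucose (horizontal axis) for 139 hairpins, with the 15 whose difference was called in purple and the dashed line at equality. Most hairpins lie near the line, mir-42, mir-43 and mir-1018 lie below it, and the point farthest left is mir-788, with 0 counts in both 2-deoxyglucose libraries of day 20.

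The spread of counts over hairpins differed by small amounts. The 5 most abundant hairpins held 50.9 ± 0.683% of counts at day 20, against 49.996 ± 0.855% at day 1 (SD, n = 4 and n = 6; two-sided exact permutation p = 0.1, adjusted p = 0.133). The 10 most abundant held 70.4 ± 0.802% at day 20, against 68.5 ± 0.703% at day 1 (exact permutation p = 0.01, unadjusted and the smallest that the 100 arrangements can give). The effective number of hairpins, which would give the same Shannon evenness at equal levels, was 24.2 ± 0.285 at day 20, against 24.8 ± 0.309 at day 1 (exact permutation p = 0.04, adjusted p = 0.08). In 850668 counts, the smallest total, 173.8 hairpins would be found at day 20 and 174.4 at day 1 (exact permutation p = 0.7).

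Within the 3 L codes that libraries of both ages hold, 94 of the 99 called hairpins had the sign of the common change every time, the exceptions being mir-40, mir-74, mir-794, mir-4813 and mir-8199. In each of these codes the day 20 library and the day 1 library are under different compounds. Within a code, age and compound therefore cannot be told apart. These libraries are also among the 10 that gave the calls, so like signs are no separate support. With the L code as a factor over all 22 libraries 98 hairpins were called, 94 of the 99 among them. In the libraries whose code both ages share, 91 were called, 89 of the 99 among them.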

How the data were processed

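Small RNA libraries of whole worms were made with the TruSeq small RNA kit, per the labels' protocols. The table that the authors deposited holds unnormalized whole counts on 250 miRNA hairpins for 22 libraries, and 0 columns belonged to other samples. The submitters' processing notes list BWA 0.7.12-r1039, SAMtools 1.3.1-9, Trimmomatic 0.36 and CASAVA 1.8.4 without saying what each was used for. Neither the genome build nor the strand setting nor the handling of reads that match several hairpins is stated there (not given in the sources used here). For the glucose analogue, the name 2-deoxyglucose follows the sample labels.

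The tests were run in R 4.3.3 with edgeR 4.0.16. TMM factors came from all 22 libraries. filterByExpr by group (minimum count 10, minimum total 15) left 139 hairpins in the 10 libraries of days 20 and 1, and 28 of the 250 had no count there. The common age change was tested with a robust quasi-likelihood F test on compound plus age (7 residual degrees of freedom), and the change within each compound and its difference in a fit of 4 groups. The median biological coefficient of variation was 12.4%. Benjamini-Hochberg adjustment ran over all hairpins tested, with calls at 0.05. Standard errors were taken from the log2 change and F (change over root F). Precision is bounded by 850668 to 2050435 counts per library, and intervals cover the spread between these libraries. Reads copied by PCR carry no molecular identifiers here and are not separate molecules. The scripts were tested on simulated data.

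Library numbers follow the order of the records. The members and lists were chosen with earlier results of these data known. Named hairpins are the 12 largest called changes each way with a mean of at least 50 CPM at an age, the 5 largest gains and losses in CPM, the 5 most abundant at each age, the 5 smallest adjusted p for the difference between compounds, members of the lists, steady hairpins, and members of clusters called in opposite directions. Other hairpins (mir-786, mir-788, mir-1020, mir-2208b, mir-2220, mir-4807, mir-247, mir-357, mir-358, mir-2212, mir-8199 and mir-4813) were named after their values were seen. Positions come from the Ensembl 115 annotation of WBcel235 by exact name. Groups by shared seed were not made, since mature sequences were not used here. Alternatives covered scaling, filters, DESeq2 1.42.0, limma-voom (limma 3.58.1), other covariates and libraries left out.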

Additional observations from a re-analysis of the deposited data

Results flagged for a closer look

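At day 20, in a group of 4 libraries, 3 hairpins had a library far from the others. mir-229 had 1967 CPM in rotenone day 20 library 1, with the next value at 1460.2 CPM. mir-54 had 13930 CPM in the same library, with the next at 10752 CPM. mir-45, which is read with mir-44 as 1 uncertain measurement, had 27354 CPM in rotenone day 20 library 2, with the next at 22048 CPM. These are 3 of 140 combinations of hairpin and age (2.14%), and chance flags about 1 in 20.

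The age change differed between compounds in 15 hairpins by a test of the difference itself (edgeR quasi-likelihood F test), given here as rotenone minus 2-deoxyglucose on the log2 scale. The negative differences were those of mir-42 (-1.84), mir-43 (-1.51), mir-1018 (-1.47), mir-2209a (-1.01) and mir-8199 (-3.09). mir-8199 was scarce, with 5.11 and 5.91 CPM under rotenone and 3.33 and 1.72 CPM under 2-deoxyglucose at day 20, and 26.8, 30.9, 21.5 CPM under rotenone and 0.923, 0.909, 2.12 CPM under 2-deoxyglucose at day 1. The positive differences were those of mir-241 (0.88), mir-246 (0.74), mir-60 (0.66), mir-228 (0.65), mir-239b (0.61), mir-52 (0.58), mir-85 (0.55), mir-230 (0.55), mir-71 (0.55) and mir-2212 (1.29). The adjusted p ran from 9.57e-04 for mir-42 to 0.0494 for mir-52 and mir-8199. mir-2212 and mir-52 were each called in 3 of 15 alternatives, mir-85 in 4, mir-228 in 5, and mir-230 and mir-8199 in 6.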

How the results depend on the processing

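Of the 99 calls, 80 were never lost in the alternatives in which the hairpin was tested, and 19 were lost in at least 1. The number called ran from 98 to 107 with a library left out, 48 to 57 higher and 49 to 52 lower, and was 116 with no filter, 85 with a minimum count of 50, 102 with DESeq2 and 101 with limma-voom. The difference between compounds was called in 27 hairpins with no filter, 24 with DESeq2 and 5 in the fit of all 22 libraries, and in 4 to 17 with a library left out. Day 10 against day 5 gave 38 to 51 calls. With a library left out, the mir-35 family share differed by 10.7 to 12.2 points, the share of the 5 most abundant by 0.629 to 1.27 points, against 1.94 points for the 10 most abundant (unadjusted exact permutation p = 0.01), the effective number by -0.73 to -0.43 and the hairpins expected by -1.51 to 0.0872. The alternatives with TMM factors from the 10 libraries alone (99 called) and with shared L codes (91) were chosen after seeing the data. No paired analysis was possible because the labels give no replicate numbers, but the L code, whose meaning is not given, was fitted as a block over all 22 libraries, with 98 called. In day 20 groups 2 libraries limit the precision, and for hairpins with few counts at an age the fitted change depends on the prior count. Causes of these shifts were not tested.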
